A study of Ovis aries with 6 samples.

Results

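The genes described here carry out the uptake and oxidation of fatty acids, and their RNA levels were measured in the choroid plexus of ewes. A list of 33 gene symbols was taken, from fatty acid carriers to the regulators of the pathway, and a symbol was kept where it was in the count table with a mean over the 6 libraries of at least 0.2 CPM, that is, counts scaled to the library's total. The table held 31 of the symbols, and 30 of its 33609 genes met the rule. FABP7, a brain fatty acid binding protein, fell outside the limit at a mean of 0.127 CPM, with 3 to 19 counts per library, while the lowest mean of a kept gene was the 30.1 CPM of ACSL4. CD36 and ACADM were not matched by symbol and were not analysed here. The identifier that RefSeq (assembly ARS-UI_Ramb_v3.0) calls ACADM had no such symbol in the table, and its mean was 2.02 CPM.

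PolyA RNA of the tissue was sequenced from ewes (Ovis aries) of 3 groups. The Short group was kept in short days and labelled as control. The Long group was kept in long days and also labelled as control. The THX group was kept in long days and had undergone thyroidectomy. Short and Long held 8 ewes each and THX held 7, and the design text counts 24 ewes in all. RNA of 3 to 4 ewes was mixed in equal amounts into each of 2 pools per group, so a library is a pool of ewes, and p-values measure the spread between such pools. The labels used here give no breed, age or other treatment. The comparison of Long with Short addresses day length, that of THX with Long addresses thyroid removal in long days, and that of THX with Short sets thyroidectomised ewes in long days beside control ewes in short days.

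As background, fatty acids are bound in the cell by fatty acid binding proteins, joined to coenzyme A by acyl-CoA synthetases and carried into mitochondria by the carnitine shuttle. There, acyl-CoA dehydrogenases start a cycle of oxidation whose electrons pass through the electron transfer flavoprotein to the respiratory chain, while peroxisomes shorten very long and branched chains by a parallel set of enzymes. PPARα and its coactivator PGC-1α are known to drive many of these genes, and PDK4 favours the burning of fat by blocking the entry of pyruvate into mitochondrial oxidation. The epithelium of the choroid plexus secretes cerebrospinal fluid and is rich in mitochondria.

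Total counts per pool ran from 48282883 to 82100653. The thyroidectomy label was checked with 2 genes known to be induced by thyroid hormone. HR was at 23.7 and 23.4 CPM in the Long pools and at 3.36 and 2.76 CPM in the THX pools, and it fell by 2.94 on the log2 scale (edgeR quasi-likelihood test, adjusted p = 0.000835). KLF9 fell by 1.38 (adjusted p = 0.00530), a call lost without Long pool 2 (adjusted p = 0.0882). In a principal component plane of all tested genes, Short pool 1 and THX pool 2 lay at opposite ends of the first component and THX pool 1 lay at the end of the second, so the 2 THX pools stood apart from each other. Of 17 markers of choroid plexus epithelium, 16 were over 0.2 CPM in the mean, all but PRLR. Their summed level was 96607 and 102278 CPM in Short, 117349 and 119163 in Long, and 128503 and 150884 in THX, most of it from TTR. The list did not move together: 8 of the 16 lay above 0 and 8 below in THX against Long and again in THX against Short. By name, looked up after the counts were seen, HTR2C fell in both (log2 difference -0.73 and -1.39, adjusted p = 0.0203 and 0.00168), and in THX against Short KL fell (-0.85, adjusted p = 0.0330) and IGFBP2 rose (1.01, adjusted p = 0.0237).

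None of the 30 genes passed the test in any of the 3 comparisons. In THX against Long, 0 of 30 were called beside 51 of 18019 genes tested (0.283%). In Long against Short, 0 of 30 were called beside 0 genes (0%), and 2486 genes of all had an unadjusted p under 0.05 in edgeR, while DESeq2 called 158 and limma-voom 0. In THX against Short, 0 of 30 were called beside 165 genes (0.916%). The lowest count behind any value of the 30 genes was the 1517 of EHHADH in THX pool 1, whose counting error is 2.57%, and all 30 passed the filter on low counts.

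**Figure D1:**
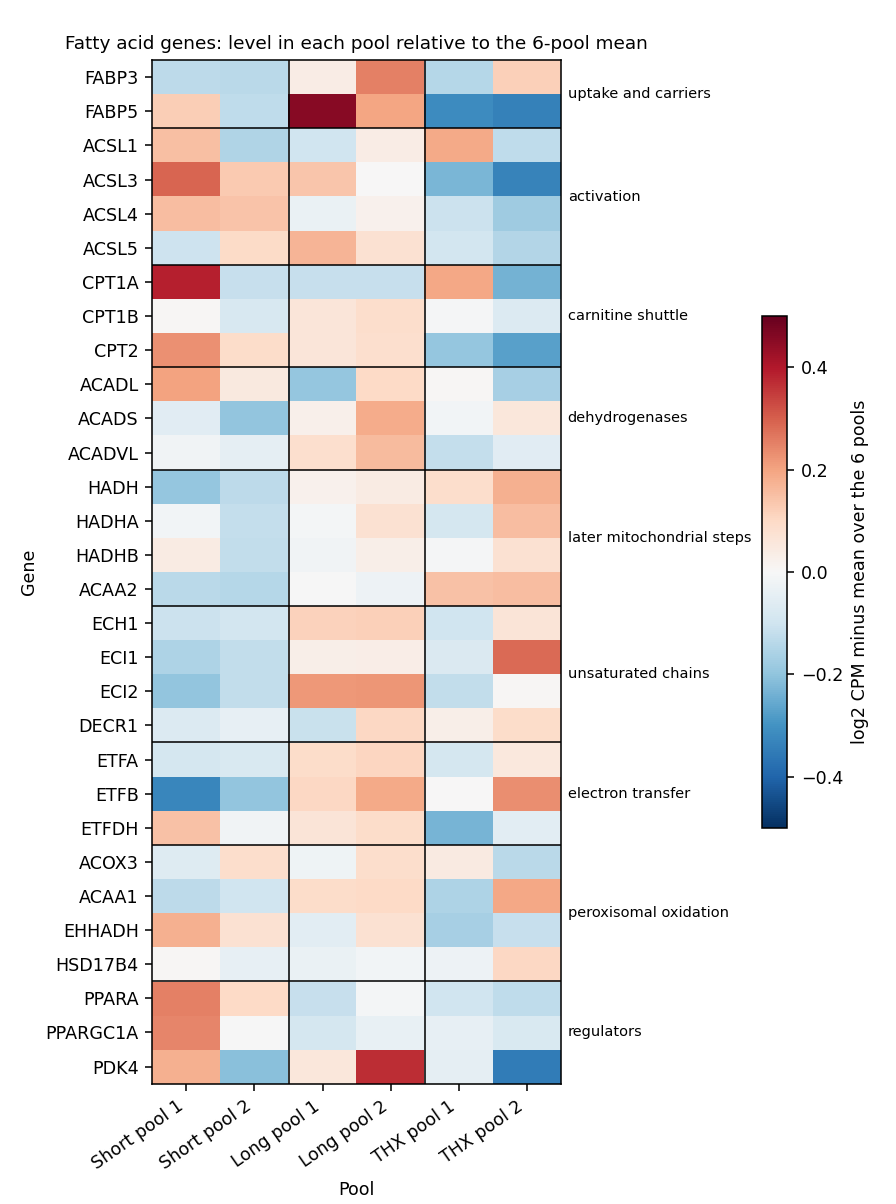
Each cell shows the log2 CPM of a gene (vertical axis, grouped by role) in a pool (horizontal axis) minus its mean over the 6 pools. FABP5, ECI2 and ACADVL were highest in the 2 Long pools, and the columns of 2 pools of 1 group often differed, as for CPT1A and PDK4.

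The differences were small. In THX against Long, 20 of the 30 genes lay below 0 and 10 above, with a median log2 difference of -0.08 beside 0.00 for all tested genes, of which 49.7% lay below 0. In Long against Short, 20 lay above 0 and 10 below, with a median of 0.11 beside 0.00 for all genes, of which 49.7% lay above 0. In THX against Short, 15 lay on each side with a median of 0.01 beside -0.01 for all genes, of which 51% lay below 0. Differences within 0.2 of 0 on the log2 scale were seen for 22, 20 and 18 of the 30 genes in these comparisons, beside 66.2%, 56.5% and 47.6% of all tested genes and 85.1%, 69.8% and 60.7% of the genes with a mean of at least 30 CPM.

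A gene whose 2 pools in one group both lay outside the range of the other group's pools is called separate here. In THX against Long, 13 genes were separate with THX lower (all genes 18.7%) and 2 with THX higher (18.5%). In Long against Short, 14 were separate with Long higher (26.7%) and 4 with Long lower (26.8%). In THX against Short, 7 were separate with THX higher (25.7%) and 10 with THX lower (26.7%). All 30 genes have a mean of at least 30 CPM, and among the 6719 genes at that level the shares were 17.1% lower and 20.8% higher in THX against Long, 35.9% higher and 29.7% lower in Long against Short, and 33.8% higher and 26.0% lower in THX against Short. The first 2 comparisons share the Long pools, so their counts are not independent of each other.

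**Figure D2:**
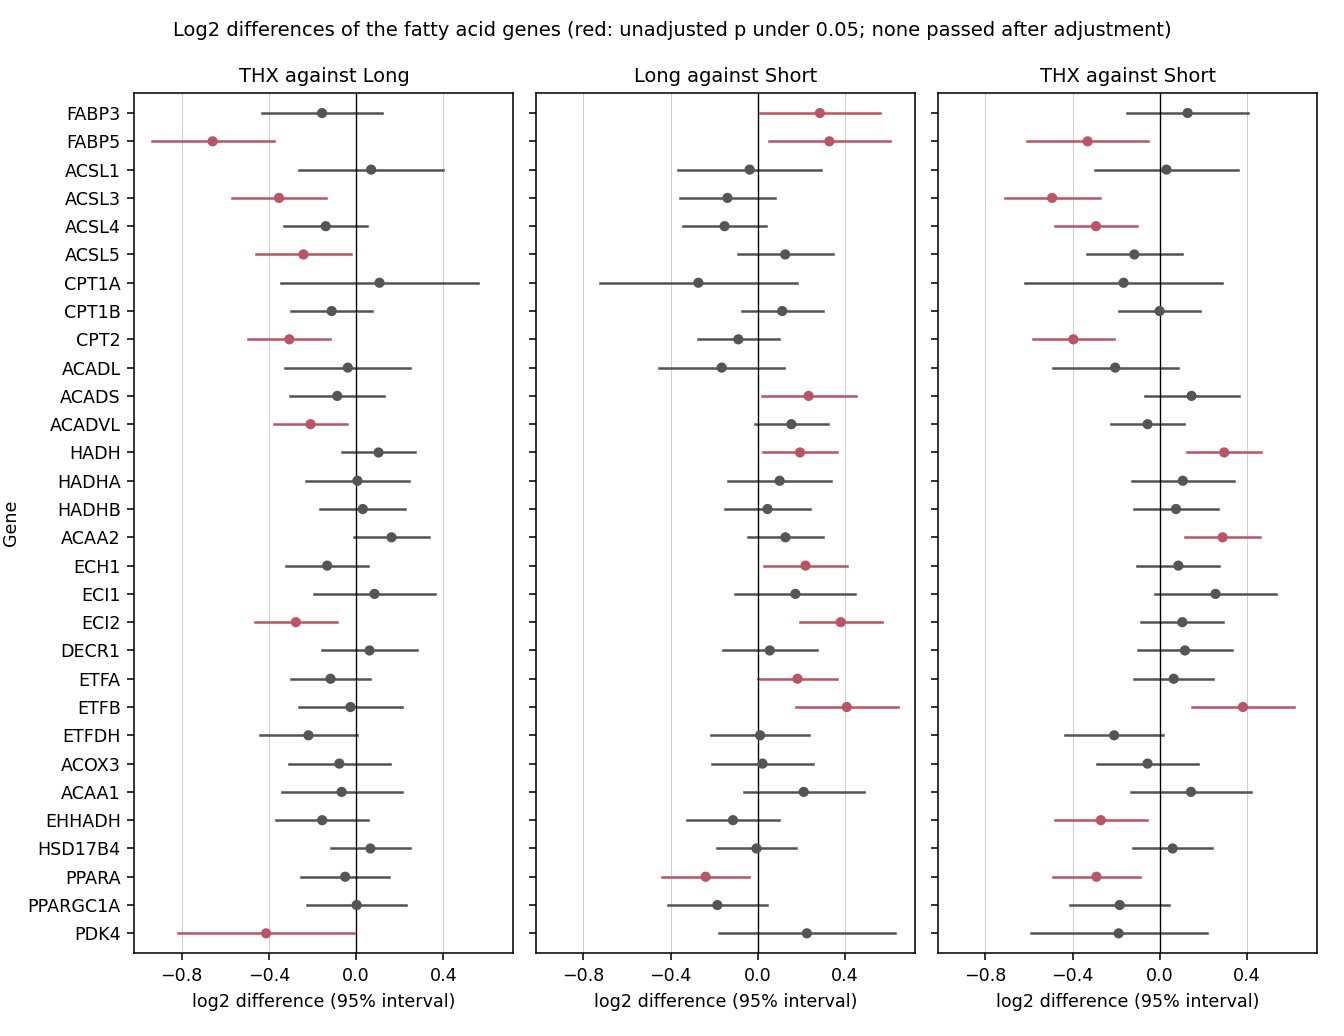
Points are log2 differences of each gene from the edgeR fit with 95% confidence intervals, for THX against Long, Long against Short and THX against Short. Intervals of 7, 9 and 9 genes exclude 0 before adjustment for the number of genes tested, and no gene has an adjusted p under 0.05.

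Among the carriers, FABP5, which binds fatty acids in the cytosol of epithelia, macrophages and other cells, had the lowest p of the list in THX against Long. It was at 148 and 124 CPM in Long, at 86.7 and 85.4 CPM in THX, and at 118 and 98.8 CPM in Short. Both Long pools lay above all other pools and both THX pools below them. The log2 difference of THX from Long was -0.66 (SE 0.118, 95% interval -0.94 to -0.38), with a mean of 86.1 ± 0.955 CPM in THX and 136 ± 17.3 CPM in Long (SD, n = 2), and the adjusted p of edgeR was 0.123. The gene passed in 2 of 14 alternatives, DESeq2 (adjusted p = 9.9e-05, in a comparison where it called 2.46% of genes) and the fit without a filter (0.0150), and the adjusted p ranged from 9.9e-05 to 0.622 over all of them. Without Long pool 1 the log2 difference was -0.52 (adjusted p = 0.622) and without Long pool 2 it was -0.78 (adjusted p = 0.256). Long was above Short by 0.33 (SE 0.118, adjusted p = 0.342), and THX was below Short by a log2 difference of -0.33 (SE 0.118, adjusted p = 0.170).

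The summed macrophage markers, like FABP5, were highest in the 2 Long pools. Within each group the pool with more FABP5 had the lower sum, and the sums of Short and THX overlapped. With 2 pools per group, and FABP5 at 86.7 and 85.4 CPM in THX, that order is only a description. Of 12 listed, 10 were over 0.2 CPM, with CD163 and C1QB under it, and their sum was 208 and 241 CPM in Short, 261 and 276 CPM in Long and 223 and 238 CPM in THX. None of the 10 passed the test in THX against Long. Fibroblast markers (9 of 10 over 0.2 CPM, all but DPT) summed to 1144 and 1370 CPM in Short, 1366 and 1291 CPM in Long and 885 and 1056 CPM in THX, and 1 of 9, LUM (looked up after the count was seen), fell in THX against Long (log2 difference -0.74, adjusted p = 0.0314). The part of these cells in the level of FABP5 was not tested, and in pooled tissue fewer cells of a type cannot be told apart from less RNA per cell.

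FABP3, the carrier known from heart and skeletal muscle, was at 32.6 and 32.5 CPM in Short, 36.7 and 42.5 CPM in Long and 32.3 and 38.8 CPM in THX. Long was above Short in both pools by 0.28 on the log2 scale (adjusted p = 0.357), and the THX pools overlapped those of Long. Striated muscle markers (7 of 10 over 0.2 CPM, all but MYH7, MYH2 and TTN) were lowest in sum in the 2 Short pools. They summed to 18.6 and 21.8 CPM in Short, 24.8 and 33.0 CPM in Long and 28.2 and 32.4 CPM in THX. Most of each sum was TNNT1. Of the 6 tested, 5 lay above 0 in Long against Short, while 4 lay below 0 and 2 above in THX against Long. MB, CKM, ACTA1 and TNNT3 were highest in Long pool 2, as was FABP3. TNNT1 and TNNI2 were highest in THX pool 2, and ACTN2 in Long pool 1. CKM and ACTA1 were at 1.58 and 2.76 CPM in Long pool 2 and at most 0.18 and 0.21 CPM elsewhere. These 2 were thus over 0.2 CPM in the mean only through that pool, which fixed where they were highest. The part of muscle cells in the level of FABP3 was not tested. FABP3 also overlaps the protein-coding gene ZCCHC17 in the RefSeq annotation, and whether reads were counted by strand is not given in the sources used here.

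**Figure D3:**
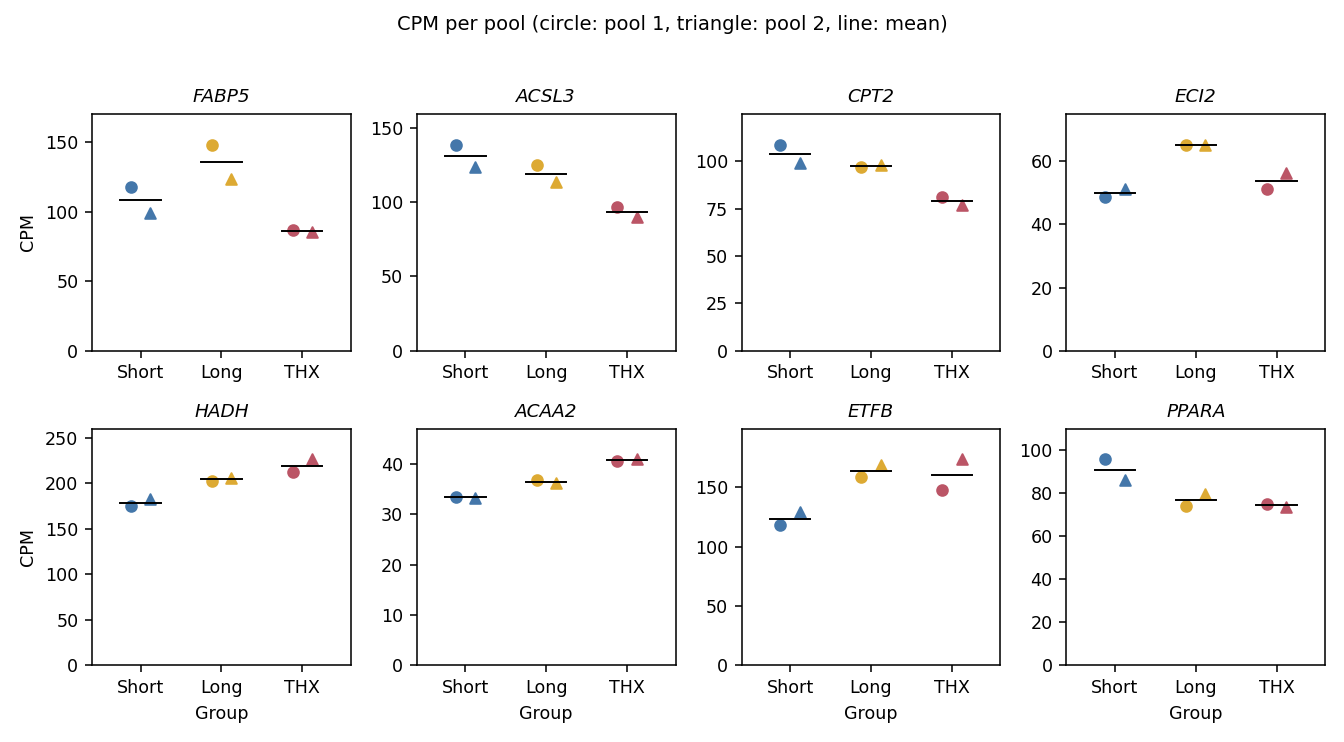
CPM of 8 genes named in the text is plotted by group, with a circle for pool 1, a triangle for pool 2 and a line at the mean. FABP5 and ECI2 were highest in Long, while ACSL3 and CPT2 were lowest in THX and HADH was highest there.

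Of the 4 acyl-CoA synthetases, which activate free fatty acids, 3 lay below 0 in THX against Long and 3 in THX against Short. ACSL3, known from the endoplasmic reticulum and lipid droplets, was at 138 and 124 CPM in Short, 125 and 113 CPM in Long, and 96.6 and 89.6 CPM in THX. Both THX pools lay below all 4 others, and the Long and Short pools overlapped. The log2 difference of THX from Short was -0.49 (SE 0.0919, interval -0.71 to -0.28, adjusted p = 0.0657), the lowest p of the 30 genes there, and it passed in 5 of 14 alternatives. Each of those alternatives called more genes over all than the main fit did, with DESeq2 at 11.7% beside 0.916%. From Long the difference of ACSL3 was -0.35 (SE 0.0919, adjusted p = 0.266).

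ACSL4, which prefers arachidonic acid, was at 33.3 and 33.0 CPM in Short, 29.3 and 30.4 CPM in Long and 27.8 and 26.4 CPM in THX. The groups did not overlap and THX was lowest, with a log2 difference from Short of -0.29 (SE 0.0801, adjusted p = 0.118). ACSL5, a synthetase of mitochondria and the endoplasmic reticulum, was at 58.8 and 55.1 CPM in Long and 49.1 and 47.3 CPM in THX (log2 difference -0.24, SE 0.0925, adjusted p = 0.492), and its Short pools, at 48.6 and 55.9 CPM, overlapped both groups. ACSL1, a synthetase strongly expressed in fat, heart and liver, had overlapping pools in all 3 comparisons, with log2 differences from -0.04 to 0.07.

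In the carnitine shuttle, CPT2, the inner membrane transferase that returns acyl groups to coenzyme A, was at 109 and 99.0 CPM in Short, 96.8 and 98.3 CPM in Long, and 81.0 and 76.8 CPM in THX. Both THX pools lay below all other pools. The difference of THX from Short was -0.40 on the log2 scale (SE 0.0791, interval -0.58 to -0.21, adjusted p = 0.0721), with a mean of 78.9 ± 2.98 CPM against 104 ± 6.84 CPM (SD, n = 2), and that from Long was -0.31 (SE 0.0791, adjusted p = 0.264). It passed against Short in 3 of 14 alternatives and against Long in 0. Those 3 each called more genes over all in THX against Short than the main fit did. CPT1B, an outer membrane transferase best known from muscle, lay between 33.7 and 37.9 CPM in all 6 pools, a little higher in Long than in the other groups.

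CPT1A, the outer membrane transferase that sets the rate of entry in most tissues, was the gene of the list that differed most between pools of 1 group. It was at 85.8 and 60.4 CPM in Short pools 1 and 2, at 60.5 CPM in both Long pools, and at 74.8 and 55.6 CPM in THX pools 1 and 2. The 2 Short pools differed by 1.42-fold, and 1.56% of genes with a mean of at least 30 CPM differed by as much there. The interval of the log2 difference of THX from Long therefore ran from -0.34 to 0.56, the widest of the 30 in that comparison.

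**Figure D4:**
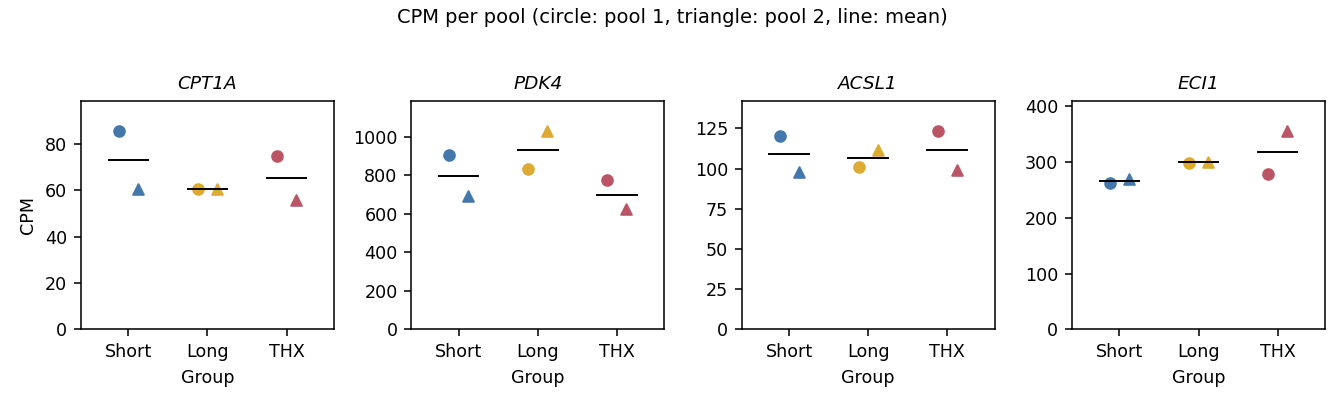
CPM is plotted by group for CPT1A, PDK4, ACSL1 and ECI1, with a circle for pool 1, a triangle for pool 2 and a line at the mean. CPT1A, PDK4 and ACSL1 were higher in pool 1 of Short and of THX, and ECI1 was higher in THX pool 2 than in any other pool.

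PDK4 and ACSL1 had the same order of pools as CPT1A in Short and THX. PDK4, the pyruvate dehydrogenase kinase induced by fasting, was at 903 and 691 CPM in Short, 830 and 1031 CPM in Long and 773 and 626 CPM in THX. The THX pools lay below the Long pools by a log2 difference of -0.41 (SE 0.171, adjusted p = 0.543), but the Short pools covered a range from below the higher THX pool to above the lower Long pool. Without Long pool 2 that difference was -0.25, and without THX pool 1 it was -0.57. ACSL1 was at 120 and 97.9 CPM in Short, 101 and 111 CPM in Long, and 124 and 99.4 CPM in THX. Pool numbers only name libraries, so the shared order is a description of these pools.

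The acyl-CoA dehydrogenases make the first double bond, each for chains of its own length. ACADVL, which handles very long chains, was at 196 and 193 CPM in Short, 211 and 221 CPM in Long and 183 and 191 CPM in THX. Both Long pools lay above all others, and the log2 difference of THX from Long was -0.21 (SE 0.0703, interval -0.38 to -0.04, adjusted p = 0.427). ACADS, for short chains, was at 57.7 and 52.4 CPM in Short, 61.2 and 68.3 CPM in Long and 59.4 and 62.4 CPM in THX, with Long above Short by 0.23 (SE 0.0911, adjusted p = 0.350). ACADL, for long chains, had overlapping pools in Long against Short and in THX against Long, between 48.8 and 64.0 CPM.

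The later mitochondrial steps lay above 0 in all 3 comparisons for all 4 genes, HADH, HADHA, HADHB and ACAA2, with none called. HADH, the dehydrogenase of short and medium chain hydroxyacyl-CoA, was at 175 and 182 CPM in Short, 203 and 205 CPM in Long, and 212 and 226 CPM in THX. The groups did not overlap. THX was above Short by 0.30 on the log2 scale (SE 0.0716, interval 0.13 to 0.46, adjusted p = 0.0978), and Long was above Short by 0.19 (SE 0.0716, adjusted p = 0.342).

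ACAA2, the mitochondrial thiolase that cleaves the chain, had the same order at 33.5 and 33.3 CPM in Short, 36.7 and 36.1 CPM in Long and 40.6 and 40.9 CPM in THX. THX was above Short by 0.29 (SE 0.0725, interval 0.12 to 0.46, adjusted p = 0.101). The summed epithelial markers, carried by TTR, had this order too, while 8 of the 16 lay below 0 in THX against Short, among them KCNJ13 at 968 and 947 CPM in Short and 622 and 778 CPM in THX, and the part of the epithelium in these 2 genes was not tested. HADHA and HADHB, the subunits of the trifunctional protein that works on long chains, had log2 differences between 0.01 and 0.11 in the 3 comparisons. With the counts scaled to library totals alone, which moved the median of all genes to -0.11 in THX against Short, the difference of HADH there was 0.20 and that of ACAA2 was 0.19.

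The enzymes for unsaturated chains shift or remove double bonds so that the cycle can go on. ECI2, an enoyl-CoA isomerase of mitochondria and peroxisomes, was at 48.7 and 51.2 CPM in Short, 65.0 CPM in both Long pools, and 51.3 and 56.1 CPM in THX. Both Long pools lay above all others, and Long was above Short by 0.38 on the log2 scale (SE 0.0796, interval 0.19 to 0.57, adjusted p = 0.342), the lowest p of the 30 in that comparison. The log2 difference of THX from Long was -0.28 (SE 0.0796, adjusted p = 0.324). DESeq2 called it in Long against Short (adjusted p = 0.0261), where DESeq2 called 1.11% of the genes to which it gave an adjusted p.

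ECH1, a dienoyl-CoA isomerase, was at 99.2 and 100.1 CPM in Short, 116 CPM in both Long pools, and 99.8 and 112 CPM in THX. Long was above Short by 0.22 (SE 0.0794, adjusted p = 0.342). ECI1, the main mitochondrial enoyl-CoA isomerase, was at 263 and 269 CPM in Short, 299 and 300 CPM in Long, and 278 and 356 CPM in THX. Its THX pools differed by a log2 value of 0.36, and THX was above Short by 0.26 (adjusted p = 0.245). Without THX pool 1 it was called there (0.43, adjusted p = 0.0386), in a fit whose calls over all genes rose from 165 to 1087. DECR1, the mitochondrial dienoyl-CoA reductase, lay between 52.2 and 60.5 CPM in all pools.

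The electron transfer flavoprotein takes electrons from the acyl-CoA dehydrogenases. ETFB, its beta subunit, was at 118 and 129 CPM in Short, 158 and 168 CPM in Long, and 148 and 173 CPM in THX. Both Long pools and both THX pools lay above both Short pools, and Long and THX overlapped. Long was above Short by 0.41 on the log2 scale (SE 0.0993, interval 0.17 to 0.64, adjusted p = 0.342) and THX was above Short by 0.38 (SE 0.0992, adjusted p = 0.109), with means of 163 ± 7.08, 160 ± 18.2 and 123 ± 7.73 CPM in Long, THX and Short (SD, n = 2). DESeq2 called both differences (adjusted p = 0.0409 and 0.0122), in THX against Short beside 11.7% of genes.

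ETFA, the alpha subunit, was at 110 and 111 CPM in Short, 124 and 126 CPM in Long, and 110 and 121 CPM in THX, with Long above Short by 0.18 (adjusted p = 0.362). ETFDH, which passes the electrons on to ubiquinone, was at 79.9 and 71.3 CPM in Short, 75.4 and 76.8 CPM in Long, and 61.4 and 69.5 CPM in THX. Its THX pools lay below all others, with a log2 difference from Long of -0.22 (SE 0.0945, adjusted p = 0.565).

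Of the 4 peroxisomal genes of the list, 3 were within 0.16 of 0 in both comparisons with Long. EHHADH, the bifunctional enzyme of straight chains, was at 33.9 and 31.6 CPM in Short, 28.9 and 31.6 CPM in Long, and 26.7 and 27.7 CPM in THX. Both THX pools lay below all others, and the log2 difference from Short was -0.27 (SE 0.0893, adjusted p = 0.153). ACAA1, the peroxisomal thiolase, was at 48.1 and 49.2 CPM in Short, 56.0 and 56.5 CPM in Long, and 47.3 and 60.1 CPM in THX, so the THX pools lay on both sides of the others. ACOX3, an oxidase of branched chains, and HSD17B4, the D-bifunctional protein, had overlapping pools in all 3 comparisons.

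Among the regulators, PPARA, the receptor PPARα, had its highest levels in the Short pools. It was at 95.5 and 85.8 CPM in Short, 74.0 and 79.7 CPM in Long, and 74.9 and 73.5 CPM in THX. The Short pools lay above all 4 others, and Long and THX overlapped. The log2 difference of Long from Short was -0.24 (SE 0.0846, interval -0.44 to -0.04, adjusted p = 0.342) and that of THX from Short was -0.29 (SE 0.0846, adjusted p = 0.130). PPARGC1A, the gene of PGC-1α, was at 117 and 98.4 CPM in Short and between 92.9 and 96.2 CPM in the other 4 pools, with a log2 difference of Long from Short of -0.19 (adjusted p = 0.408).

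Summed within each of the 9 roles, the 2 carriers were at 150 and 131 CPM in Short, 185 and 166 CPM in Long and 119 and 124 CPM in THX. The 4 activation genes were at 341 and 311 CPM in Short, 314 and 310 CPM in Long and 297 and 263 CPM in THX. The 3 genes of the carnitine shuttle were at 230 and 193 CPM in Short, 195 and 197 CPM in Long and 191 and 166 CPM in THX. The activation and carnitine sums were thus lowest in THX pool 2 and highest in Short pool 1, and the carriers were highest in the Long pools. The 3 dehydrogenases lay between 298 and 349 CPM over the 6 pools, with Short and THX overlapping. The 4 later mitochondrial genes were at 594 and 569 CPM in Short, 621 and 642 CPM in Long and 622 and 687 CPM in THX, and the 4 genes for unsaturated chains at 465 and 475 CPM in Short, 532 and 541 CPM in Long and 487 and 584 CPM in THX. The 3 electron transfer genes were at 307 and 311 CPM in Short, 358 and 371 CPM in Long and 319 and 364 CPM in THX. These last 3 sums were lowest in the 2 Short pools, and their Long and THX pools overlapped. The 4 peroxisomal genes lay between 236 and 253 CPM over all pools, and the 3 regulators, most of it PDK4, between 793 and 1207 CPM with overlap of all groups but THX and Long.

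Unadjusted p values in edgeR were under 0.05 for 7 of the 30 genes in THX against Long, all with THX lower, where 4.92% of all genes and 5.19% of those with a mean of at least 30 CPM were. They were FABP5, ACSL3, ACSL5, CPT2, ACADVL, ECI2 and PDK4. In Long against Short they were under 0.05 for 8 genes with Long higher (6.47% of all genes, 11.1% of those at 30 CPM or more) and for PPARA with Long lower (7.33% and 9.39%). The 8 were FABP3, FABP5, ACADS, HADH, ECH1, ECI2, ETFA and ETFB. In THX against Short they were so for HADH, ACAA2 and ETFB with THX higher (10.8% and 17.2%) and for FABP5, ACSL3, ACSL4, CPT2, EHHADH and PPARA with THX lower (11.8% and 14.0%).

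A further 95 genes of the pathway outside the 30, from 7 lists, are reported from the same fit, and 0 of these passed in any comparison. Unadjusted p values of edgeR were under 0.05 for 14 of them in THX against Long (6 with THX higher and 8 lower), where 9.08% of all tested genes were (4.16% higher and 4.92% lower). They were for 16 in Long against Short (10 with Long higher and 6 lower; all genes 13.8%) and for 30 in THX against Short (14 with THX higher and 16 lower; all genes 22.6%). Their median log2 differences were -0.01, 0.05 and 0.02 in these comparisons.

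**Figure D5:**
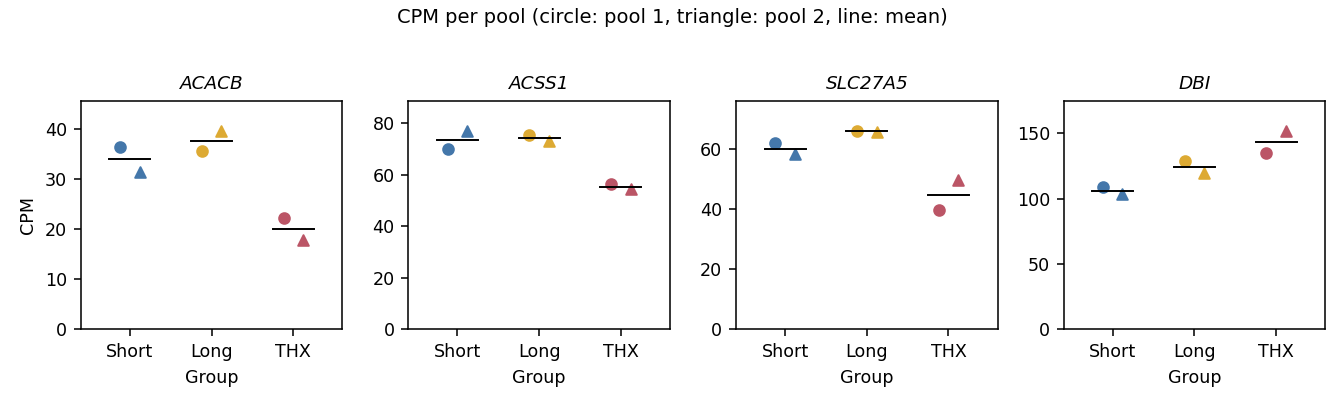
CPM is plotted by group for ACACB, ACSS1, SLC27A5 and DBI, with a circle for pool 1, a triangle for pool 2 and a line at the mean. ACACB, ACSS1 and SLC27A5 were lowest in both THX pools, and DBI was highest in them.

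The list of regulators and brakes had 19 genes, with 0 called in each comparison. ACACB, the mitochondrial acetyl-CoA carboxylase whose product malonyl-CoA inhibits the entry of fatty acids through CPT1, was at 35.6 and 39.7 CPM in Long, 22.2 and 17.8 CPM in THX and 36.5 and 31.4 CPM in Short. Both THX pools lay below all others, and the log2 difference from Long was -0.92 (SE 0.136, adjusted p = 0.0717) and from Short -0.77 (adjusted p = 0.0573). DESeq2 called both differences of ACACB (adjusted p = 9.9e-07 and 5.8e-05), in comparisons where it called 2.46% and 11.7% of genes. The unadjusted count in THX against Long was 4 lower and 1 higher, the latter RXRA, the partner of PPARα on DNA (0.35, adjusted p = 0.201). PDK3, another pyruvate dehydrogenase kinase, had a log2 difference of -0.62 in THX against Short (adjusted p = 0.0721). The lowest p values of Long against Short were those of PRKAA2 (-0.57) and PRKAA1 (-0.32), the catalytic subunits of AMP-activated kinase, both with an adjusted p of 0.342.

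Of 16 other uptake, carrier and activation genes, 0 were called. ACSS1, the mitochondrial acetyl-CoA synthetase, was at 75.5 and 73.0 CPM in Long and 56.3 and 54.5 CPM in THX (log2 difference -0.42, adjusted p = 0.149). In THX against Short ACSS1 was at -0.41 (adjusted p = 0.0702), the lowest p of this list there. SLC27A5, a very long chain synthetase, was at 66.1 and 65.6 CPM in Long and 39.7 and 49.7 CPM in THX (-0.56, adjusted p = 0.171). DBI, the acyl-CoA binding protein, was at 109 and 104 CPM in Short and 135 and 152 CPM in THX (0.44, adjusted p = 0.0722). MFSD2A, a transporter of lysolipids, had the lowest p of this list in Long against Short (0.49, adjusted p = 0.342), followed by DBI (0.22, adjusted p = 0.349). The 6 other carnitine genes had 0 calls, with SLC22A5, the carnitine transporter, at 0.31 in THX against Long (adjusted p = 0.445), and SLC22A4 at 0.35 and CROT, the peroxisomal octanoyltransferase, at -0.29 in THX against Short (adjusted p = 0.0883 and 0.105). SLC22A4 in Long against Short was at 0.21 and SLC25A20, the carnitine carrier of the inner membrane, at 0.17 (adjusted p = 0.349 and 0.513), and in THX against Long CROT was at -0.18 (adjusted p = 0.525).

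In the list of other mitochondrial oxidation genes, 0 of 20 were called. It also held NUDT7 and NUDT19, known from peroxisomes, and ECHDC1, known from the cytosol. All 20 lay within 0.2 of 0 in THX against Long, with adjusted p values of at least 0.711. MCEE, a methylmalonyl-CoA epimerase, was at 0.31 in Long against Short and 0.38 in THX against Short (adjusted p = 0.342 and 0.0986), and ECHDC3 was at -0.26 in Long against Short (adjusted p = 0.342). PCCB, a subunit of propionyl-CoA carboxylase, was at -0.16 and NUDT7, a coenzyme A hydrolase, at 0.17 in THX against Long, and ACAD8, a dehydrogenase of valine breakdown, was at 0.23 in THX against Short (adjusted p = 0.711, 0.731 and 0.157). Of 18 other peroxisomal genes reported, 0 were called, and DECR2, the peroxisomal dienoyl-CoA reductase, was at 0.35 in THX against Long and 0.42 in THX against Short (adjusted p = 0.415 and 0.118). ACOT8, a peroxisomal thioesterase, was at 0.20 in Long against Short and 0.27 in THX against Short (adjusted p = 0.355 and 0.137). CAT, the catalase that breaks down hydrogen peroxide, was at 0.17 in Long against Short (adjusted p = 0.363), and ACOXL, an oxidase-like gene, was at 0.97 in THX against Long (SE 0.365, adjusted p = 0.484). The level of ACOXL was low, at 0.46 and 0.83 CPM in Long and 1.18 and 1.36 CPM in THX.

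In the list of lipid droplet release, 0 of 8 genes were called. That list also held DGAT1 and DGAT2, which make triglyceride, and G0S2, an inhibitor of release. MGLL, the monoglyceride lipase, was at -0.62 in THX against Long (adjusted p = 0.20). In THX against Short MGLL was at -0.46 and LIPA, the lysosomal acid lipase, at -0.21 (adjusted p = 0.132 and 0.163), and LIPA was at -0.13 in THX against Long (adjusted p = 0.717). PNPLA2, the lipase that opens triglyceride breakdown, was at 0.23 and its inhibitor G0S2 at 0.32 in Long against Short (adjusted p = 0.358 and 0.433). Of 8 PPAR targets outside oxidation, 0 were called, and PLIN4, a lipid droplet coat protein, was at -0.76 in Long against Short and -0.55 in THX against Short (adjusted p = 0.342 and 0.220). PLIN2, another coat protein, was at 0.34 in THX against Long and 0.37 in THX against Short (adjusted p = 0.663 and 0.260). ANGPTL4, an inhibitor of lipoprotein lipase, was at -0.36 in THX against Long (adjusted p = 0.703) and CREB3L3, a transcription factor, at -0.64 in Long against Short (adjusted p = 0.496). The level of CREB3L3 was low, at 0.27 and 0.26 CPM in Long and 0.44 and 0.38 CPM in Short. Of 8 adipocyte markers 4 were over 0.2 CPM, with ADIPOQ, LEP, CIDEC and RETN under it, and their sum lay between 9.16 and 10.8 CPM in all 6 pools.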

How the data were processed

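The library kit kept strand information, per the labels. The values deposited by the authors are unnormalised counts per gene. The submitters' processing notes name TopHat2 2.1.1, featureCounts 2.0.0, SAMtools 1.9, bcl2fastq 2.20, MultiQC 1.9 and FastQC 0.11.8. Which build and annotation were used, and whether counting was by strand, is not given in the sources used here. In RefSeq (ARS-UI_Ramb_v3.0), 9 of the 30 genes overlap another gene, 2 of them a protein-coding one (FABP3 and ACOX3). All 30 identifiers matched that table with the same symbol.

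Counts were fitted in R 4.3.3 with edgeR 4.0.16. After its default filter, 18019 genes were scaled by TMM factors and fitted with 1 mean per group over all 6 pools (3 residual and 3.96 prior degrees of freedom, common biological coefficient of variation 0.151). Pairs of groups were compared by two-sided quasi-likelihood F tests with Benjamini-Hochberg adjustment over the 18019 genes and a threshold of 0.05. CPM values use TMM-scaled totals, except the means that chose the genes, which use total counts. The spread of counts between pools of a group was 28.5 (Short), 16.2 (Long) and 71.4 (THX) times the counting variance, so no pair of pools differed by sampling noise alone. Alternatives used DESeq2 1.42.0 and limma 3.58.1. The procedure was also run on counts simulated from the genes' mean levels and the fitted trend of their spread. That run cannot show how the tests behave on these pools. The genes, the pathway and marker lists and the tests were chosen with earlier results of these data known. In each comparison the text names the 6 genes with the lowest p, any gene with an unadjusted p under 0.05 in both comparisons with Long, and the 2 genes with the lowest p of each pathway list among the genes reported. 1 gene of the pathway lists is not reported here. Figures used matplotlib 3.10.9 in Python 3.11.15.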

Additional observations from a re-analysis of the deposited data

How the results depend on the processing

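Each result was recomputed under 14 alternatives and a threshold of 0.1. The genes called in THX against Long (51) became 204 with no filter, 440 with DESeq2, 22 with only the 4 pools compared and 92 at the threshold of 0.1, and 2 to 37 when 1 pool was left out (leaving out Long pool 2 gave 2, Long pool 1 gave 9, THX pool 1 gave 13 and either Short pool gave 24). Those in Long against Short (0) became 158 with DESeq2 and 0 to 4 without 1 pool (4 without Long pool 1, 1 without Short pool 2). Those in THX against Short (165) became 259 with scaling to library totals, 908 with no filter, 1721 with DESeq2, 11 with only the 4 pools compared and 922 at 0.1, and 10 to 1087 without 1 pool (1087 without THX pool 1, 80 without THX pool 2, 36 without Short pool 2, 16 without either Long pool and 10 without Short pool 1).

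Of the 30 genes, 1 was called in THX against Long with no filter and with DESeq2 (FABP5 each time), and 0 with any pool left out. In Long against Short, 2 were called with DESeq2 (ECI2 and ETFB). In THX against Short, 2 were called with scaling to library totals and 2 with no filter (ACSL3 and CPT2 each time), 6 with DESeq2 (these 2, PPARA, HADH, ACAA2 and ETFB, beside 11.7% of all genes), 3 at a threshold of 0.1, and 0 to 3 without 1 pool (ACSL3, ECI1 and ETFB without THX pool 1). The median of the 30 genes was -0.13 in THX against Long, 0.0552 in Long against Short and -0.0814 in THX against Short with scaling to library totals. Without 1 pool it ran from -0.129 (Long pool 1) to -0.0329 (Long pool 2) in THX against Long and from -0.0251 (THX pool 1) to 0.0628 (Short pool 1) in THX against Short. The sign of the difference was kept in all 14 alternatives by 18, 23 and 18 of the 30 genes.

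The deviations of pools that share a number had correlations of -0.0586 (Short and Long), 0.211 (Short and THX) and 0.0670 (Long and THX), not over 0.1 for every pair, so the numbers were not taken to pair the pools. A replicate block on the pool number gave 48, 0 and 392 calls over all genes and 0, 0 and 1 (ACSL3) among the 30. The causes of these shifts were not tested.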
